A study of Mus musculus with 16 samples.

Results

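TGF-beta signalling and mesenchymal transition were followed through 10 named genes, out of 51912 in the deposited table, in RPE, the retinal pigment epithelium, which supports the photoreceptors of the mouse eye. They were the ligand genes Tgfb1, Tgfb2 and Tgfb3, the receptor genes Tgfbr1 and Tgfbr2, the contractile genes Acta2 and Tagln, the transcription factor gene Snai2, the intermediate filament gene Vim and the matrix gene Fn1. The genes were taken by symbol, each matched 1 Ensembl identifier, and all 10 were among the 15380 genes that averaged at least 1 CPM over the libraries, where CPM is a gene's count scaled to a library of 1000000 counts. The mice were male C57BL/6, 40 weeks old, and either wild type or SUCNR1 KO, that is, knocked out for the receptor for succinate. Each genotype was left untreated or given hydroquinone, an oxidant found in cigarette smoke, which made 4 groups of 4 libraries with 1 eye per library. By the sample titles, untreated wild type came from 2 mice that each gave both eyes and untreated knockout from 3 mice, of which 1 gave both eyes. Hydroquinone wild type and hydroquinone knockout came from 4 mice each, although the protocol text speaks of 4 animals in every group. The dose, route and length of the exposure and the way Sucnr1 was deleted are not given in the sources used here. The RPE was peeled from the choroid by hand once the anterior eye and the retina had been taken away, with no cell sorting, so RNA of neighbouring tissue could enter a library.

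TGF-beta ligands are secreted in a latent complex, released by integrins and proteases, and bound by the type II receptor (TGFBR2), which recruits and phosphorylates the type I receptor (TGFBR1). The active receptor phosphorylates SMAD2 and SMAD3, which enter the nucleus with SMAD4 and act on matrix and cytoskeletal genes. In cultured RPE cells and in scarring disease of the retina, this pathway is known for driving an epithelial to mesenchymal transition, in which cells give up junctions and gain stress fibres and matrix. Most of these genes also have a normal source elsewhere in the eye: smooth muscle cells and pericytes for Acta2 and Tagln, glia and fibroblasts for Vim. In a tissue sample, fewer cells of a type and less RNA per cell cannot be told apart.

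A known SMAD binding motif, CAGAC, was searched on both strands in the 250 bases before the RefSeq start sites, because the ligand Tgfb2 gave the smallest p of the 10 genes. RefSeq (GRCm38.p6) windows were matched for 6 of the 10 genes, 7 windows in all, and 4 of them held the motif (Acta2, Tgfb2, Tgfbr1 and Tgfbr2). It was present in 42.2% of all 32851 windows of this length, so its presence does not set these genes apart. The Tgfb2 window (chr1:186705990-186706239, minus strand, 5′ to 3′) held 2 copies, shown in capitals, which start 221 and 204 bases before the start site.
Tgfb2: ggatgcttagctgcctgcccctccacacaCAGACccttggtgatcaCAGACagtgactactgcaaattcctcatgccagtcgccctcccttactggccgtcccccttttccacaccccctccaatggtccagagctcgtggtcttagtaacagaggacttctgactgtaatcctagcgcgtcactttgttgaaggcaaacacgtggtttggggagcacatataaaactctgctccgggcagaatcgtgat

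The 16 libraries held 21113549 to 35332444 counts each, and the 10 genes between 43 counts (the lowest Snai2 library) and 18750 (the highest Vim library). Sucnr1 itself did not check the genotypes. It had 0 to 17 counts in untreated wild type, 0 to 1 in hydroquinone wild type, 0 to 3 in untreated knockout and 0 to 1 in hydroquinone knockout. The defining RPE genes (Rpe65, Rlbp1, Best1 and others, 12 in all) had a high mean log2(CPM + 1) in every library, at 9.14 to 9.87. Not each gene was high by itself, with Best1 at 0.988 to 3.33 CPM. Markers of other tissue were also present and uneven. The same score ran from 3.12 to 10.1 for 10 rod photoreceptor genes, from 7.56 to 10.2 for 6 corneal epithelium genes and from 1.54 to 8.04 for 5 oligodendrocyte genes. No marker of any list was at 0 in all libraries. The library identifiers in the labels come with a letter in 7 libraries and without one in 9, a form that is given here as a possible batch: 2 libraries of each form stood in 3 of the groups, and 3 without and 1 with a letter in hydroquinone wild type.

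No gene of the 10 passed the threshold in any of 7 contrasts (edgeR quasi-likelihood test, Benjamini-Hochberg adjusted p below 0.05 over 15380 genes). Of all genes tested, 0.0065% passed for hydroquinone in wild type, 0.0455% for hydroquinone in knockout and 0.0845% for hydroquinone averaged over genotype. In the contrasts of knockout with wild type, untreated, under hydroquinone and averaged, and in the interaction, 0% passed. DESeq2 also called 0 of the 10 genes. What the genes showed below that threshold were 3 differences. Tgfb2 was higher in hydroquinone knockout than in hydroquinone wild type, Vim was lower in hydroquinone wild type than in untreated wild type or hydroquinone knockout, and Snai2 was higher with hydroquinone in wild type. At an unadjusted p below 0.05 there were 2 of 10 genes for hydroquinone in wild type, where 4.28% of all genes lay, and 0 for hydroquinone in knockout, where 2.96% lay. For knockout against wild type there were 0 genes untreated (1.32% of all genes), 2 under hydroquinone (4.18%) and 1 averaged over treatment (2.96%). Hydroquinone averaged over genotype gave 1 (5.72%) and the interaction 1 (1.92%). DESeq2 gave 2, 0, 0, 2, 2, 1 and 1 genes in the same order of contrasts. Over the whole table it gave 1111, 817, 621, 985, 866, 1392 and 610 genes at that unadjusted p. DESeq2 was run without the filter at 1 CPM, so the edgeR shares above do not apply to its counts.

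**Figure D1:**
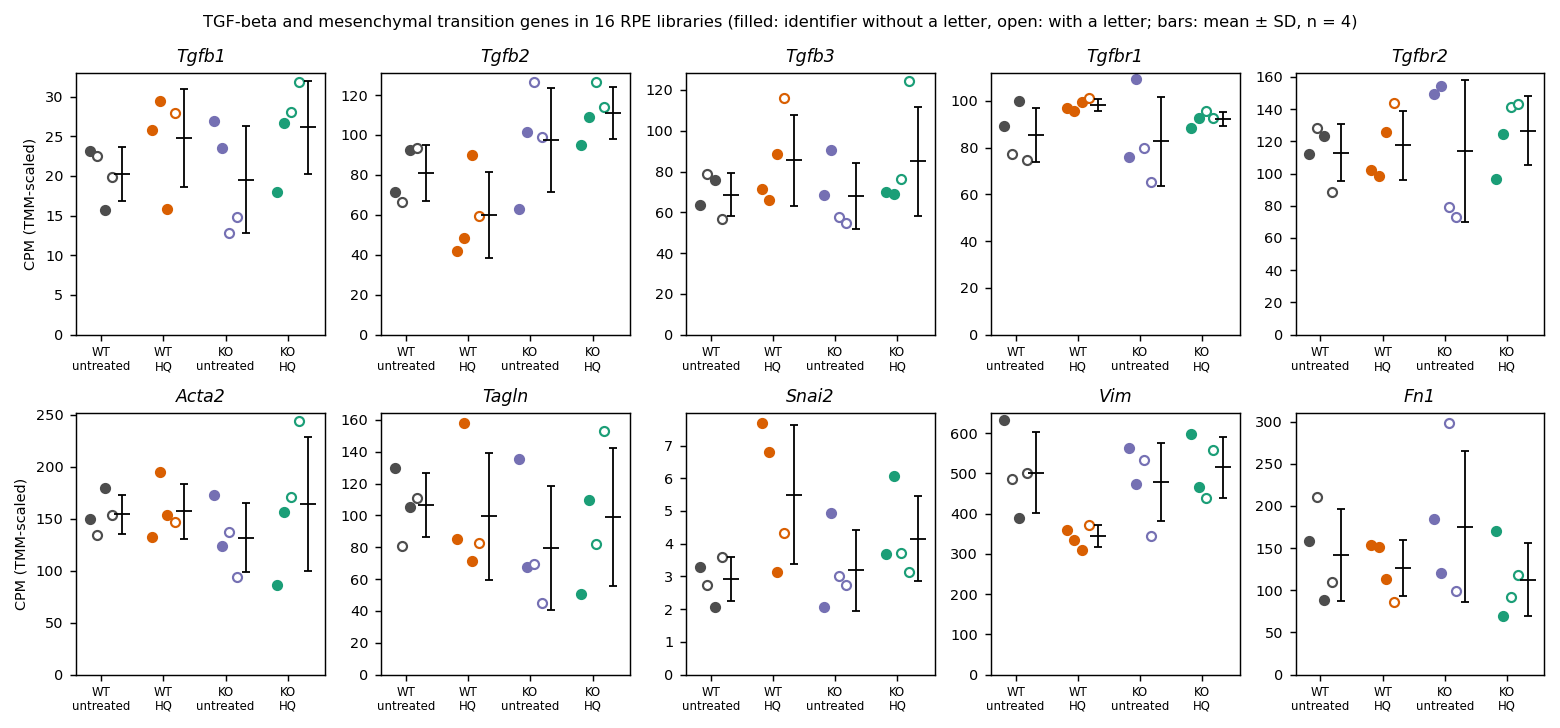
CPM of the 10 genes in each library (points; open points are libraries whose identifier holds a letter) with the group mean ± SD (bars, n = 4 libraries) on axes that start at 0. The 4 hydroquinone wild-type libraries lie below the other wild-type libraries for Vim (311 to 372 against 390 to 633 CPM), and Tgfb2 in hydroquinone knockout (94.7 to 127 CPM) lies above hydroquinone wild type (41.7 to 90.2 CPM).

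Levels were compared between genes per kilobase of exon (CPM per kb). Vim was highest, at 97.0 ± 21.2 CPM per kb (SD over 16 libraries), followed by Acta2 at 69.2 ± 17.2 and Tagln at 48.3 ± 17.3. The ligand genes Tgfb3 and Tgfb2 followed at 22.7 ± 5.87 and 15.1 ± 4.54 CPM per kb. These 5 genes kept this order in most libraries: Vim exceeded Acta2 in 14 of 16, Acta2 exceeded Tagln and Tagln exceeded Tgfb3 in 16 of 16, and Tgfb3 exceeded Tgfb2 in 14. Tgfb2, Tgfbr2 (14.4 ± 3.14) and Tgfbr1 (13.7 ± 1.82 CPM per kb) did not differ beyond their spread, each exceeding the next in only 9 of 16 libraries. Tgfbr1 exceeded Fn1 (11.9 ± 4.98 CPM per kb) in 12 of 16 libraries. Tgfb1 at 4.50 ± 1.16 and Snai2 at 1.95 ± 0.816 CPM per kb were the lowest, in that order in 16 of 16 libraries. Among all tested genes Vim stood at the 97.1st percentile of level per kb, and Snai2 at the 24.5th. Fn1 and Snai2 varied most from library to library, with a 4.30-fold and a 3.74-fold span between the lowest and the highest library, and Tgfbr1 least, with 1.68-fold.

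Tgfb2 (ENSMUSG00000039239, chromosome 1, 186622792 to 186705989, minus strand, GRCm38) encodes TGF-beta 2, known as the main isoform of the back of the eye. Its level was 71.3, 66.6, 92.7 and 93.3 CPM in the untreated wild-type libraries and 41.7, 48.4, 90.2 and 59.3 CPM in the hydroquinone wild-type libraries, in the order of replicates 1 to 4. It was 62.9, 101.5, 127 and 98.9 CPM in untreated knockout and 94.7, 109, 127 and 114 CPM in hydroquinone knockout. Every hydroquinone knockout library lay above every hydroquinone wild-type library, while all other pairs of groups of 1 genotype or 1 treatment overlapped. Of all genes, 1.72% were separated in this direction. The mean under hydroquinone was 111 ± 13.1 CPM in knockout and 59.9 ± 21.4 CPM in wild type (SD, n = 4 libraries), a log2 fold change of 0.89 (SE 0.24, 95% interval 0.39 to 1.39). Its unadjusted p was 0.0018, the 10th smallest of 15380 genes, and the edgeR adjusted p was 1.00. The difference was 0.73 in libraries without a letter and 1.02 in those with a letter, where hydroquinone wild type has 1 library. Averaged over treatment, knockout exceeded wild type by 0.58 on the log2 scale (SE 0.17, unadjusted p = 0.0033, edgeR adjusted p = 0.987). Within wild type the difference with hydroquinone was -0.44 and within knockout it was 0.19, and their difference, the interaction, was 0.62 (unadjusted p = 0.079). Hydroquinone wild-type replicate 3, at 90.2 CPM, was the highest of its group, so leaving it out had to widen the difference. Without it, knockout against wild type under hydroquinone was 1.16 (edgeR adjusted p = 0.302). The change was not particular to Tgfb2. In this contrast 1781 of 15391 genes lay at an unadjusted p below 0.05 without that library, against 643 of 15380 with it. Several marker lists moved in the same contrast. All 8 glial (median log2 fold change 0.51), 10 rod (0.92), 10 endothelial (0.20) and 5 oligodendrocyte markers (1.79) were higher in knockout, and all 6 corneal markers were lower (-1.24), with 0 called in each list. The rod rise rested on 1 library, hydroquinone knockout replicate 1, with a score of 9.96. The other libraries of that group were at 3.12 to 3.92, below the 4.68 to 7.76 of hydroquinone wild type. The mean rod score was thus lower in knockout, at 5.18 against 6.81. The summed corneal level was 3350 to 12990 CPM in hydroquinone knockout and 3883 to 27605 CPM in hydroquinone wild type, and the part of these lists in the Tgfb2 difference was not tested.

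Tgfb3 (ENSMUSG00000021253, chromosome 12, 86056745 to 86079041, minus strand) and Tgfb1 (ENSMUSG00000002603, chromosome 7, 25687002 to 25705077, plus strand) encode the other ligands, of which TGF-beta 1 is the form most linked to immune cells and wound repair. Tgfb3 was at 63.4, 78.9, 75.9 and 56.6 CPM in untreated wild type and at 71.2, 66.0, 88.5 and 116 CPM in hydroquinone wild type. It was at 68.4, 90.4, 57.7 and 54.7 CPM in untreated knockout and at 70.1, 68.9, 76.2 and 125 CPM in hydroquinone knockout. The groups overlapped, and in both hydroquinone groups replicate 4, a library with a letter, was the highest. The group means were 68.7 ± 10.5 and 85.4 ± 22.5 CPM in wild type without and with hydroquinone, and 67.8 ± 16.2 and 84.9 ± 26.6 CPM in knockout. The log2 fold change with hydroquinone in knockout was 0.32 (SE 0.23, unadjusted p = 0.173). Tgfb3 overlaps the coding gene Ttll5 on the opposite strand (742 to 1402 counts), and since the strand setting of the counting is not given in the sources used here, reads of both genes may not have been separated.

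Tgfb1 was the lowest of the ligands. It was at 23.1, 22.6, 15.7 and 19.8 CPM in untreated wild type, at 25.8, 29.5, 15.9 and 27.9 CPM in hydroquinone wild type, at 26.9, 23.5, 12.8 and 14.9 CPM in untreated knockout and at 17.9, 26.7, 28.1 and 31.8 CPM in hydroquinone knockout. All groups overlapped, and the 2 lowest libraries of all, untreated knockout replicates 3 and 4, both had identifiers with a letter. With hydroquinone the log2 fold change was 0.29 (SE 0.26) in wild type and 0.42 (SE 0.26, 95% interval -0.13 to 0.97, unadjusted p = 0.121) in knockout. As a share of the 3 ligands' summed level per kb, Tgfb3 made up 52.9% ± 5.7 in untreated wild type, 61.9% ± 5.0 in hydroquinone wild type, 49.0% ± 7.2 in untreated knockout and 50.1% ± 6.3 in hydroquinone knockout (SD, n = 4 libraries). Tgfb2 made up 36.5%, 25.4%, 41.4% and 39.4% in the same order, so its own share was smallest in hydroquinone wild type. The shares depend on the exon lengths used and include any Ttll5 reads counted for Tgfb3.

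Of the receptors, Tgfbr1 (ENSMUSG00000007613, chromosome 4, 47353222 to 47414931, plus strand), the kinase that phosphorylates the SMADs, was the most even of the 10 genes. It was at 95.6 to 101 CPM in hydroquinone wild type and 88.4 to 95.7 CPM in hydroquinone knockout, against 74.8 to 99.8 CPM in untreated wild type and 65.3 to 109.5 CPM in untreated knockout. The hydroquinone groups overlapped the untreated ones, with log2 fold changes of 0.20 (SE 0.13, 95% interval -0.08 to 0.49) in wild type and 0.16 (SE 0.13) in knockout. Tgfbr2 (ENSMUSG00000032440, chromosome 9, 116084293 to 116175360, minus strand), the receptor that binds ligand first, was at 112, 128, 123 and 88.7 CPM in untreated wild type and at 102, 98.7, 125.5 and 144 CPM in hydroquinone wild type. In untreated knockout it fell into a high and a low pair, 149.5 and 154 CPM in replicates 1 and 2 and 79.1 and 73.1 CPM in replicates 3 and 4. Hydroquinone knockout, at 96.9, 125, 141 and 143 CPM, lay between these pairs, and the log2 fold change with hydroquinone in knockout was 0.15 (SE 0.24, unadjusted p = 0.530). The high pair has identifiers without a letter and the low pair with one. Replicates 1 and 3, one of each pair, are the eyes of the same mouse.

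This split ran through much of the set. Among knockout libraries with a letter, 9 of the 10 genes were higher with hydroquinone and 6 were so at an unadjusted p below 0.05 (Tgfb1, Tgfb3, Tgfbr1, Tgfbr2, Acta2 and Tagln, by 0.38 to 1.11 on the log2 scale), where 9.21% of all genes lay. None passed the adjustment, with a smallest edgeR adjusted p of 0.116. Among knockout libraries without a letter 7 of 10 were lower, with 1, Tgfbr2, lower at an unadjusted p below 0.05 (-0.48, where 1.05% of all genes lay). The median log2 fold change of the 10 genes was therefore 0.61 with a letter, -0.21 without and 0.25 over all knockout libraries, so the 9 of 10 genes that were higher over all knockout libraries do not hold within both forms. Rod markers were lower with hydroquinone among knockout libraries with a letter. Without one, rod markers in the hydroquinone libraries lay on either side of the untreated values. Their score was 7.67 and 10.1 in the untreated and 3.12 and 3.73 in the hydroquinone knockout libraries with a letter, and 4.04 and 4.45 in the untreated and 9.96 and 3.92 in the hydroquinone knockout libraries without one. With a letter, the scores of 5 other lists were all higher in both hydroquinone than in both untreated knockout libraries. Fibroblast markers had scores of 6.29 and 6.58 untreated and 7.14 and 7.17 with hydroquinone, and smooth muscle and pericyte markers 4.94 and 4.98 against 5.42 and 5.83. Macrophage and microglia markers had 4.64 and 4.41 against 5.47 and 5.53, endothelial markers 4.8 and 4.98 against 5.63 and 5.92, and RPE markers 9.64 and 9.26 against 9.73 and 9.87. Glial, corneal and oligodendrocyte scores were lower in both hydroquinone than in both untreated libraries with a letter. The part of any of these lists in the result was not tested.

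**Figure D2:**
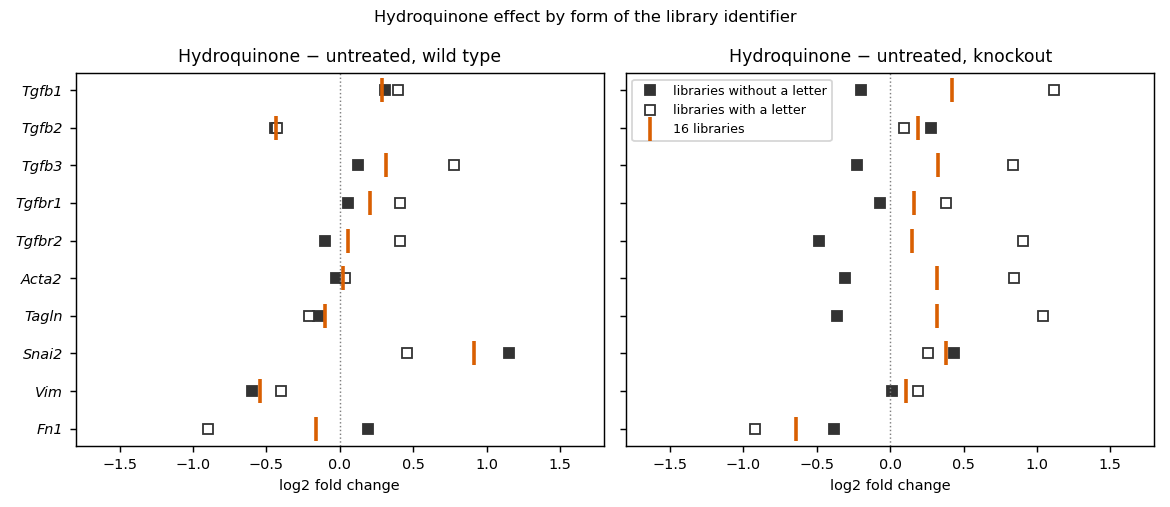
Log2 fold change (hydroquinone minus untreated) of the 10 genes in wild type (left) and knockout (right), fitted to libraries without a letter (filled squares), with a letter (open squares) and to all 16 libraries (orange bars). In knockout the open squares of Tgfb1, Tgfb3, Tgfbr2, Acta2 and Tagln lie at 0.84 to 1.11 while the filled squares lie at -0.48 to -0.20.

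Acta2 (ENSMUSG00000035783, chromosome 19, 34241090 to 34255590, minus strand), which encodes smooth muscle alpha actin, the usual sign of a myofibroblast, was at 150, 134, 180 and 153 CPM in untreated wild type and at 133, 195, 154 and 147 CPM in hydroquinone wild type. It was at 173, 123, 138 and 93.4 CPM in untreated knockout and at 86.5, 157, 171 and 244 CPM in hydroquinone knockout. Hydroquinone knockout held both the lowest library (replicate 1) and the highest (replicate 4) of all 16, and all groups overlapped. The log2 fold change with hydroquinone was 0.02 in wild type and 0.32 (SE 0.25, 95% interval -0.21 to 0.86, unadjusted p = 0.221) in knockout. Tagln (ENSMUSG00000032085, chromosome 9, 45929619 to 45936058, minus strand), which encodes the actin-binding protein transgelin, was at 130, 80.9, 105 and 111 CPM in untreated wild type and at 85.2, 158, 71.4 and 82.8 CPM in hydroquinone wild type. It was at 135.5, 67.8, 69.6 and 44.8 CPM in untreated knockout and at 50.6, 109.8, 82.1 and 153 CPM in hydroquinone knockout. Its groups overlapped as well, and its smallest p among the contrasts of 2 groups was that of knockout against wild type untreated, with a log2 fold change of -0.42 (SE 0.36, unadjusted p = 0.259).

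Acta2 and Tagln moved together across libraries (Pearson r of log2(CPM + 1) 0.87 over 16 libraries, which share their depth and tissue makeup). For both, the tested gene most like it was Myl9, the regulatory light chain of smooth muscle and non-muscle myosin, with r of 0.901 to Acta2 and 0.941 to Tagln. The mean score of 12 smooth muscle and pericyte markers such as Myh11, Des and Rgs5 correlated with Acta2 at 0.78 and with Tagln at 0.67. Acta2 also correlated with the RPE score at 0.62 and with the rod score at -0.64, and Tagln at 0.26 and -0.49. The summed level of the 12 smooth muscle and pericyte markers was 671 to 974.7 CPM in untreated wild type and 679.8 to 919 CPM in hydroquinone wild type. It was 535 to 929.9 CPM in untreated knockout and 692 to 1135 CPM in hydroquinone knockout. With hydroquinone in knockout 9 of these 12 markers were higher, and their part in the Acta2 and Tagln values was not tested. The CArG box, the serum response factor motif of contractile genes, was searched in the same 250-base windows, where 1.47% of all windows and 0 of the 7 windows of the set held it. The Myl9 window is shown because it carries one (RefSeq, chr2:156775214-156775419, plus strand, the stretch before the annotated exons), with the box in capitals 161 bases before the start site.
Myl9: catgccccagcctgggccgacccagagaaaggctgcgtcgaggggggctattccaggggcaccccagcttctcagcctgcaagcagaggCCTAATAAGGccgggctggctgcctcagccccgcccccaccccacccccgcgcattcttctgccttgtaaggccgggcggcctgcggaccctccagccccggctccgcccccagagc

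Vim (ENSMUSG00000026728, chromosome 2, 13573927 to 13582826, plus strand) encodes vimentin, the intermediate filament of mesenchymal cells, which is also a standard protein of Müller glia. It was at 633, 485, 389.7 and 500.3 CPM in untreated wild type and at 359.7, 335, 311 and 372 CPM in hydroquinone wild type. It was at 562.5, 473, 533 and 344 CPM in untreated knockout and at 598, 467, 438 and 559 CPM in hydroquinone knockout. Every hydroquinone wild-type library lay below every untreated wild-type library and below every hydroquinone knockout library, while it overlapped untreated knockout through that group's replicate 4. Of all genes, 1.78% were separated in the first of these directions and 1.72% in the second. The log2 fold change with hydroquinone in wild type was -0.54 (SE 0.17, 95% interval -0.91 to -0.18, unadjusted p = 0.0061, edgeR adjusted p = 0.994). Under hydroquinone, knockout exceeded wild type by 0.58 (SE 0.17, 95% interval 0.22 to 0.94, unadjusted p = 0.0039, edgeR adjusted p = 1.00). Both contrasts share the hydroquinone wild-type libraries, so they are not separate evidence. The interaction was 0.65 (SE 0.24, unadjusted p = 0.016, edgeR adjusted p = 1.00). By identifier form, the wild-type difference was -0.60 without and -0.40 with a letter, and the knockout difference under hydroquinone was 0.62 and 0.42. Both values with a letter rest on 1 hydroquinone wild-type library.

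Glial markers went the same way as Vim. Of 8 Müller glia and astrocyte genes, 7 were lower with hydroquinone in wild type (median log2 fold change -0.73) and 8 were higher in knockout than wild type under hydroquinone (median 0.51). At an unadjusted p below 0.05 there were 4 of the 8 in the first contrast, where 4.28% of all genes lay, and 3 in the second, where 4.18% lay. In either contrast 0 were called. Their score was 7.0 to 7.93 in hydroquinone wild type, 7.74 to 8.95 in untreated wild type, 8.43 to 8.90 in untreated knockout and 7.75 to 8.93 in hydroquinone knockout. Their summed level was 9617 to 10386 CPM in hydroquinone wild type against 9971 to 11215 CPM in untreated wild type, 9228 to 12049 CPM in untreated knockout and 10854 to 13830 CPM in hydroquinone knockout. The summed level of hydroquinone wild type thus overlapped both untreated groups, while it lay below hydroquinone knockout. In this sum Apoe, at a mean of 6900 CPM over 16 libraries, and Glul, at 2255 CPM, weigh most. Gfap, Slc1a3 and Aqp4 averaged 346, 81.8 and 45.4 CPM, so the sum says little about these genes. The 5 oligodendrocyte markers were all lower with hydroquinone in wild type, with a median of -3.38, and all higher in knockout under hydroquinone, with a median of 1.79. Across the 16 libraries Vim correlated with the glial score at 0.79 and with the oligodendrocyte score at 0.74, and the part of these cells in the Vim differences was not tested. The tested genes most like Vim were Gna12 (r 0.916) and Hspa2 (r 0.907).

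Snai2 (ENSMUSG00000022676, chromosome 16, 14705852 to 14709385, plus strand) encodes SLUG, a repressor of epithelial junction genes, and was the least expressed of the set at 43 to 236 counts per library. It was at 3.28, 2.74, 2.06 and 3.58 CPM in untreated wild type and at 7.70, 6.80, 3.14 and 4.34 CPM in hydroquinone wild type. It was at 2.06, 4.95, 3.00 and 2.73 CPM in untreated knockout and at 3.69, 6.06, 3.73 and 3.12 CPM in hydroquinone knockout. Replicates 1 and 2 of hydroquinone wild type were the 2 highest libraries of all, while replicate 3 overlapped the untreated group. The log2 fold change with hydroquinone was 0.92 in wild type (SE 0.34, 95% interval 0.18 to 1.65, unadjusted p = 0.018, edgeR adjusted p = 0.994) and 0.65 averaged over genotype (SE 0.24, unadjusted p = 0.018, edgeR adjusted p = 0.823). Within wild type it was 1.15 in libraries without a letter and 0.46 in those with one, where hydroquinone wild type has 1 library. The corneal epithelium marker score was 10.2 in both hydroquinone wild-type replicates 1 and 2, the highest of all libraries, and 8.25 and 8.80 in replicates 3 and 4. Over 16 libraries it correlated with Snai2 at 0.71, and its part in the Snai2 difference was not tested.

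Fn1 (ENSMUSG00000026193, chromosome 1, 71585520 to 71653200, minus strand) encodes fibronectin, a matrix protein laid down early in fibrosis and also made by RPE. It was at 159, 210.4, 88.3 and 109.7 CPM in untreated wild type and at 154, 152, 114 and 86.0 CPM in hydroquinone wild type. It was at 184, 121, 299 and 98.7 CPM in untreated knockout and at 170.2, 69.5, 92.0 and 118 CPM in hydroquinone knockout. The untreated knockout replicate 3 stood highest of all libraries, and all groups overlapped. The log2 fold change with hydroquinone in knockout was -0.64 (SE 0.37, 95% interval -1.43 to 0.14, unadjusted p = 0.0997), and it was -0.92 with a letter and -0.38 without. Without untreated knockout replicate 3 it was -0.26.

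**Figure D3:**
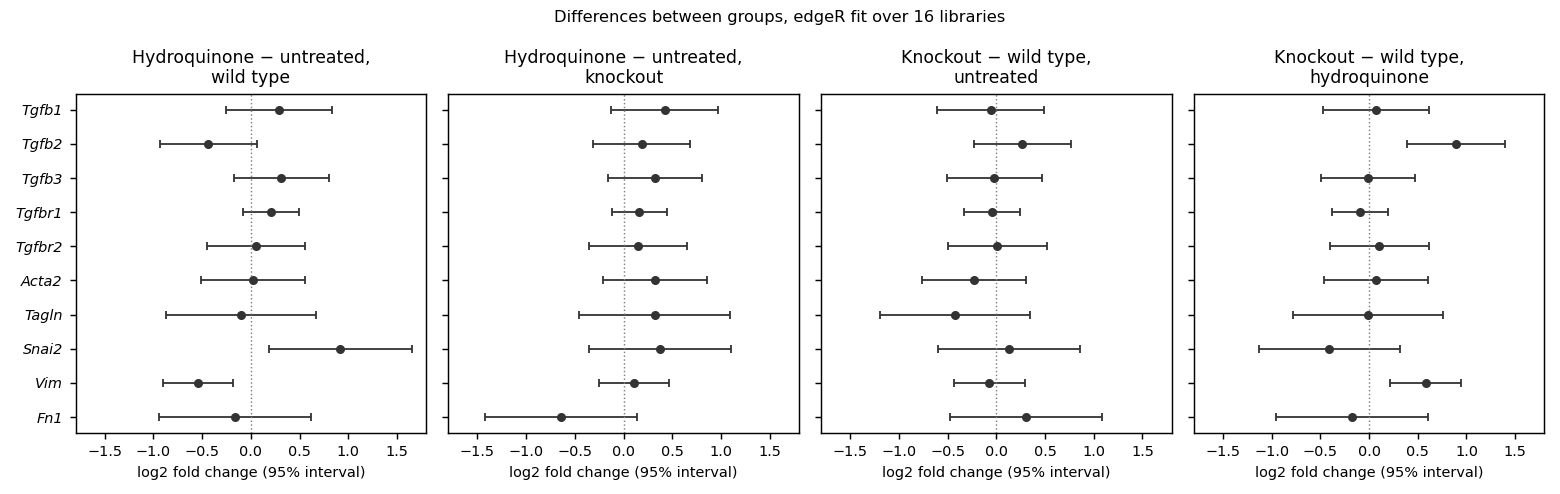
Log2 fold change of each of the 10 genes with its 95% interval (edgeR, 16 libraries) for the 4 contrasts of 2 groups. The intervals that leave out 0 are those of Vim and Snai2 for hydroquinone in wild type and of Vim and Tgfb2 for knockout against wild type under hydroquinone.

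Over the set, with hydroquinone in wild type 6 genes were higher and 4 lower, with a median log2 fold change of 0.04, against -0.00020 over all tested genes. In untreated mice 4 were higher in knockout and 6 lower, with a median of -0.03 (0.011 over all genes), and under hydroquinone 5 and 5, with a median of 0.03 (0.015 over all genes). The contrast with the most genes in 1 direction was hydroquinone in knockout, with 9 higher and 1 lower and a median of 0.25 (-0.0014 over all genes), which differed by identifier form as given above. Hydroquinone averaged over genotype had 7 higher and 3 lower (median 0.14), knockout averaged over treatment 5 and 5 (median -0.0024) and the interaction 7 and 3 (median 0.11). Intervals were wide: over the 10 genes the lowest and highest bounds of the 95% intervals were -0.94 and 1.65 for hydroquinone in wild type and -1.20 and 1.09 for knockout against wild type untreated.

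The rest of the pathway was read from 6 lists with 74 genes, of which 71 were tested; Actg2, S100a4 and Twist2 were below 1 CPM. None of the 71 passed in any of the 7 contrasts with edgeR or DESeq2. At an unadjusted p below 0.05 in edgeR there were 0 genes for hydroquinone in wild type, 3 for hydroquinone in knockout and 5 for hydroquinone averaged over genotype, all higher, where 2.07% and 2.75% of all genes lay higher in the last 2 contrasts. Knockout against wild type gave 0 untreated, and 3 higher and 2 lower under hydroquinone, where 2.65% of all genes lay higher and 1.53% lower. It gave 1 higher averaged over treatment (1.41% of all genes), and the interaction gave 0.

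Among the 18 target genes, 14 were higher with hydroquinone in knockout, with a median of 0.21, and 12 in wild type, with a median of 0.15. Tnc, which encodes the matrix protein tenascin-C of healing tissue, was at 20.1 ± 5.76 CPM in hydroquinone knockout and 12.7 ± 2.84 CPM in untreated knockout (SD, n = 4 libraries), overlapping, with a log2 fold change of 0.66 (SE 0.27, unadjusted p = 0.025, edgeR adjusted p = 1.00). Averaged over genotype Tnc differed by 0.51 (unadjusted p = 0.016, edgeR adjusted p = 0.823). Tgfbi, a secreted TGF-beta induced protein abundant in cornea, was at 98.0 ± 43.6 CPM in knockout and 240.5 ± 178 CPM in wild type under hydroquinone (log2 fold change -1.30, SE 0.53, unadjusted p = 0.028). The corneal markers were lower too in this contrast (median log2 fold change -1.24), and their part in the Tgfbi difference was not tested.

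The 13 latent complex and activator genes had medians of 0.07 and 0.10 with hydroquinone in wild type and knockout. Ltbp2, a latent TGF-beta binding protein family member, had the smallest p for knockout against wild type untreated (0.53, unadjusted p = 0.12) and averaged over treatment (0.57, unadjusted p = 0.024). The 8 receptors and co-receptors had medians of 0.07 and 0.13 with hydroquinone in wild type and knockout, and the 12 SMADs and regulators 0.05 and 0.15. Smad4, the shared SMAD partner, was at 69.2 ± 3.69 CPM in untreated and 76.6 ± 3.18 CPM in hydroquinone wild type (0.15, unadjusted p = 0.087), and Smurf2, a ubiquitin ligase for the receptors, differed by 0.14 between the untreated genotypes (unadjusted p = 0.125). The 12 tested regulators and markers of mesenchymal transition had medians of -0.01 with hydroquinone in wild type and 0.11 in knockout. Cdh2, the N-cadherin gene, had the second smallest p of the lists for knockout averaged over treatment (0.34, unadjusted p = 0.065).

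Epithelial genes, which fall in a mesenchymal transition, were 6 higher and 3 lower with hydroquinone in wild type and 5 higher and 4 lower in knockout, of 9. Corneal epithelium markers were 5 higher and 1 lower in wild type (median 0.81) and 2 higher and 4 lower in knockout (median -0.23). Their part in the counts of epithelial genes was not tested. Krt8, a simple epithelial keratin, was 0.26 higher with hydroquinone averaged over genotype (unadjusted p = 0.027). Cldn19, the main claudin of RPE tight junctions, was at 22.9 ± 10.2 CPM in untreated and 13.8 ± 2.04 CPM in hydroquinone wild type, a log2 fold change of -0.73 (SE 0.35, unadjusted p = 0.055). In hydroquinone knockout it was at 26.4 ± 10.8 CPM, a log2 fold change of 0.93 against hydroquinone wild type (SE 0.35, unadjusted p = 0.018, edgeR adjusted p = 1.00). The 2 contrasts share the hydroquinone wild-type libraries, and Cldn19 overlapped in both.

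Among the 10 genes, pairs other than Acta2 and Tagln correlated less across libraries. Tgfb3 and Tgfbr2 followed at 0.75, and the lowest were Tgfb2 with Snai2 at -0.39 and Tgfb2 with Tgfb1 at -0.38. The genes most like the receptors and ligands were largely not others of the pathway. For Tgfbr2 they were C3ar1 (r 0.957), the receptor for complement C3a, and Tlr8 (0.949), both genes of myeloid cells. For Tgfb1 they were Unc93b1 (0.910), which carries Toll-like receptors to endosomes, and Sh2b3 (0.892), for Tgfb2 Ptprz1 (0.947) and Alg2 (0.914), and for Tgfb3 Smoc1 (0.903) and Serpine2 (0.883). Tgfbr1 was nearest to Gbp7 (0.897) and Mob1a (0.895), Snai2 to Timeless (0.917) and Tcaf2 (0.908), and Fn1 to Itih2 (0.889) and Ranbp3l (0.865). These values are the highest of 15380 genes for each and are given as a description.

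**Figure D4:**
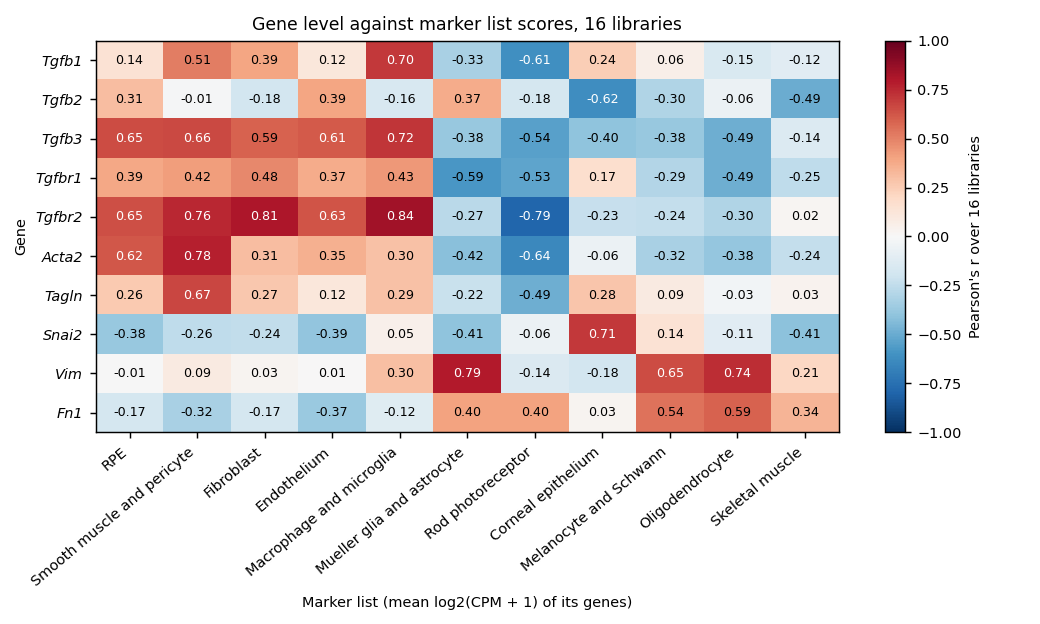
Pearson's r over 16 libraries between the log2(CPM + 1) of each of the 10 genes (rows) and the mean log2(CPM + 1) of 11 cell type marker lists (columns), from blue (-1) to red (1). The highest is Tgfbr2 with macrophage and microglia markers (0.84) and the lowest Tgfbr2 with rod markers (-0.79), while Tgfb2 exceeds 0.5 with no list.

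The macrophage and microglia score, from 8 markers such as Csf1r and Cx3cr1, correlated with Tgfbr2 at 0.84, with Tgfb3 at 0.72 and with Tgfb1 at 0.70. In untreated knockout this score was 5.6 and 5.34 in replicates 1 and 2 and 4.64 and 4.41 in replicates 3 and 4, the same 2 pairs as in the Tgfbr2 level. The pairs were not particular to this list. Fibroblast (7.33 and 7.32 against 6.29 and 6.58), smooth muscle and pericyte, endothelial and corneal scores split the same way. The rod score split the opposite way (4.04 and 4.45 against 7.67 and 10.1), and the scores of the remaining lists did not split so. Tgfbr2 also correlated with the fibroblast score at 0.81, the smooth muscle and pericyte score at 0.76, the RPE score at 0.65 and the endothelial score at 0.63. With the rod score its r was -0.79, and the part of any of these lists in the Tgfbr2 level was not tested. For Tgfb2 the correlations ran from -0.62 with corneal markers to 0.39 with endothelial and 0.37 with glial markers.

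The 3 mice that gave both eyes show how far 2 libraries of 1 animal lay apart. Each of these pairs held 1 library with a letter and 1 without. The spread between eyes thus cannot be told apart from a difference by identifier form. Between the eyes of the untreated knockout mouse (replicates 1 and 3) the larger value was a median of 1.54 times the smaller over the 10 genes, and up to 2.10 times for Tgfb1. Tgfb2 differed by 2.01 times, Tagln by 1.95 and Tgfbr2 by 1.89 between these eyes. In the 2 untreated wild-type mice the median was 1.17 and 1.27 times and the maximum 1.60 and 1.74 times. Tgfb2 differed by 1.07 times between the eyes of 1 of these wild-type mice and by 1.01 times in the other.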

How the data were processed

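RNA from the RPE of 16 mouse eyes was sequenced on an Illumina NovaSeq, per the labels' protocols. The deposited file holds whole-number counts per Ensembl gene for 16 libraries. Its name speaks of FPKM, but 100% of the values are whole numbers and library totals differ, so they were treated as raw counts. The submitters' processing notes name mm10, STAR, Cufflinks and DESeq2 without their roles, and the counting tool and strand setting are not given in the sources used here. Symbols, coordinates (1-based) and exon lengths are from GENCODE vM21 (GRCm38), which matched 51719 of 51912 identifiers. Promoter windows are from RefSeq (GRCm38.p6).

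Groups were compared in R 4.3.3 with edgeR 4.0.16 (quasi-likelihood F test), with TMM scaling (factors 0.973 to 1.03) and the 4 group means in 1 model. Testing took in genes that averaged 1 CPM or more (15380 genes, 99.8% of counts), with Benjamini-Hochberg adjustment over all of them and a threshold of 0.05. Standard errors and 95% intervals were derived from the F statistic. CPM uses TMM-scaled library sizes. A marker score is the mean log2(CPM + 1) of a list, and likeness is Pearson's r of log2(CPM + 1) over 16 libraries, without a p. The fit was also run on simulated counts drawn independently for each library, without shared mice, identifier form or uneven carried-over tissue. That run cannot speak to those features of the data. Total counts per library were 21113549 to 35332444, and replicate spread, not counting error, limits most values.

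Groups were taken from the sample labels. Replicate numbers follow accession order. edgeR treated both eyes of a mouse as separate libraries, so p-values measure the spread between libraries, which in untreated wild type come from 2 mice. limma (3.58.1) with the mouse as a block, DESeq2 (1.42.0), other scalings and filters, summed eyes, the identifier form and leaving out libraries were tried as alternatives. The 10 genes, the 6 pathway lists and the 11 marker lists were chosen with earlier results of these data known. Named are the 10 genes, the 2 tested genes most like each, from the pathway lists the 2 genes with the smallest p per contrast outside the interaction, and Sucnr1; 1 gene that this rule gave is not reported here. Myl9's promoter was shown after its values were seen.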

Additional observations from a re-analysis of the deposited data

Results flagged for a closer look

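Of 84 sets of 4 libraries searched (the 10 genes and the 11 marker lists in each group), 6 had a highest or lowest library that stood apart from the other 3 by Dixon's ratio above 0.829. Chance alone gives about 1 in 20, so 6 of 84 is near that number. Tgfb3 in hydroquinone knockout replicate 4 was at 6.97 on the log2(CPM + 1) scale (125 CPM), while the other 3 libraries were at 68.9 to 76.2 CPM. The RPE score of untreated knockout replicate 4 was 9.26, with the others at 9.59 to 9.64. The rod score of hydroquinone wild-type replicate 4 was 4.68, with the others at 7.28 to 7.76. The rod score of hydroquinone knockout replicate 1 was 9.96, with the others at 3.12 to 3.92. The oligodendrocyte score of hydroquinone wild-type replicate 1 was 5.72 (others 1.54 to 2.20), and the skeletal muscle score of hydroquinone knockout replicate 1 was 8.87 (others 7.24 to 7.50).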

How the results depend on the processing

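The counts of called genes among the 10 genes and among the pathway lists were 0 under each alternative run, 28 for the contrasts of 2 groups and 27 for the averaged ones and the interaction, where fitting only the groups compared does not apply. With a filter at 5 CPM Snai2 was not tested. The alternatives gave a smallest adjusted p of 0.115 for any of the 10. Over the whole table the calls ranged from 0 to 17 for hydroquinone in wild type (1 reported), from 0 to 12 in knockout (7) and from 0 to 42 averaged over genotype (13). Of 70 log2 fold changes (10 genes in 7 contrasts), 41 changed sign in at least 1 alternative; of 138 sign changes, 27 came with only libraries without a letter. Among those named with a test in the report, the direction turned for 4 genes with hydroquinone in knockout when only libraries without a letter were used: Tgfb1 to -0.20, Tgfb3 to -0.23, Tgfbr2 to -0.48 and Acta2 to -0.31. Leaving out 1 library at a time moved Tgfbr2 in that contrast between -0.011 and 0.33. Tgfb2 in knockout against wild type under hydroquinone kept its direction, at 0.73 to 1.16 over all alternatives, Vim with hydroquinone in wild type at -0.66 to -0.40, and Snai2 at 0.46 to 1.15. For Tgfb2 and Vim the compared groups did not overlap, so fits to fewer libraries could not be expected to turn the direction. Their kept direction is therefore no separate check. No paired analysis was possible because the replicate numbers only follow the accessions and so link no libraries across groups. With the mouse as a block in limma (consensus correlation -0.020) the count of called genes among the 10 was 0. Limits are the identifier form, the 2 and 3 mice behind the untreated groups, the tissue carried along in dissection, and, for Snai2, a count as low as 43.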
